A study of Mus musculus with 208 samples.

Results

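The choroid plexus genes described here were 8 of the 39179 genes in the deposited count table, namely Ttr, Slc4a5, Kcnj13, Clic6, Aqp1, Folr1, Kl and Otx2. They were chosen by symbol with earlier results of these data in view, selected on their count-based levels in Q80 mice at 6 months and on how they moved together over the libraries. Their levels are therefore given as a description, and the contrasts of Q80 at 6 months are given without a test. RNA carrying a poly-A tail was sequenced from the striatum of C57BL/6 mice in 26 groups of 8 libraries each. The 18 knock-in groups were mice heterozygous for a Htt allele with 20, 80, 92, 111, 140 or 175 CAG repeats (Q20, Q80, Q92, Q111, Q140, Q175) at 2, 6 and 10 months of age. Htt is the gene whose repeat expansion causes Huntington's disease, and the allele lies in the endogenous gene, so it is not limited to a cell type. The 8 wild-type groups were housed with Q20 mice at 2 and 10 months and with each of the 6 lines at 6 months, so most lines had wild types of their own cages at 6 months only. By label each group held 4 females and 4 males. The exceptions were Q80 at 2 months (3 females, 5 males) and Q20 at 10 months (5 females, 3 males). Libraries are named by labelled sex and number within their group (F3, M2). The column names of Q80 M3 at 2 months and Q20 F5 at 10 months carry a code otherwise seen on libraries labelled as the other sex. What the code stands for is not given, and sex is used here as labelled. The labels do not tie replicate numbers to animals, and p-values measure the spread between these libraries.

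The choroid plexus is a sheet of epithelium on a vascular core that lies in the brain ventricles and secretes cerebrospinal fluid. Its cells move ions and water into the ventricle, carry vitamins and hormones across the barrier between blood and fluid, and release proteins into the fluid. In each hemisphere the striatum borders a lateral ventricle, which holds such a plexus. In bulk tissue, more cells of a type and more RNA per cell cannot be told apart.

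Of the 8 genes, 4 serve transport across the membrane. Slc4a5 (ENSMUSG00000068323) encodes a sodium bicarbonate cotransporter, Kcnj13 (ENSMUSG00000079436) the inwardly rectifying potassium channel Kir7.1, Aqp1 (ENSMUSG00000004655) a water channel, and Clic6 (ENSMUSG00000022949) a member of the chloride intracellular channel family. Folr1 (ENSMUSG00000001827) encodes folate receptor alpha, which brings folate into the fluid. Ttr (ENSMUSG00000061808) encodes transthyretin, the secreted carrier of thyroid hormone, and Kl (ENSMUSG00000058488) encodes klotho, a membrane protein that is also shed into the fluid. Otx2 (ENSMUSG00000021848) encodes a homeodomain transcription factor required for the development of the choroid plexus.

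Promoter sequences of RefSeq (build GRCm38.p6, 250 bases before to 50 after a start) matched 5 of the 8 genes by symbol, with 8 starts in all, 4 of them of Otx2. The shown promoters are those of Kcnj13 and Slc4a5, the genes whose highest library stood farthest above the median of all libraries after Ttr, and of the 1 member start that held the letters TAATCC or their reverse complement GGATTA, a motif bound by Otx2. The capitals mark that motif, which was searched on both strands. It was present in 1 of the 8 member promoters, at position 40 of the Otx2 promoter, 211 bases before the start (-211), and in 7.06% of the 32851 promoters of the table.
Kcnj13 (chr1:87394680-87394979, minus strand): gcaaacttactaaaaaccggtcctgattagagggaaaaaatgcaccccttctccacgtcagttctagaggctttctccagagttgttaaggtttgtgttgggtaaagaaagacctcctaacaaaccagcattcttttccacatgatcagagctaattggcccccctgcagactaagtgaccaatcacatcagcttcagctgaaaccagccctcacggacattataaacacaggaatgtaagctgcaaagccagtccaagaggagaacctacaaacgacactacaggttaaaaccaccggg
Slc4a5 (chr6:83237125-83237424, plus strand): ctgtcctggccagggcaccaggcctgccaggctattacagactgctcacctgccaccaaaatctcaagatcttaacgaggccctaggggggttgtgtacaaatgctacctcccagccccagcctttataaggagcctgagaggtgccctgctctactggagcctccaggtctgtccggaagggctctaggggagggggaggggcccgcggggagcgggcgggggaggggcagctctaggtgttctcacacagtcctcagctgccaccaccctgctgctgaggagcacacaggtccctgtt
Otx2 (chr14:48665060-48665359, minus strand): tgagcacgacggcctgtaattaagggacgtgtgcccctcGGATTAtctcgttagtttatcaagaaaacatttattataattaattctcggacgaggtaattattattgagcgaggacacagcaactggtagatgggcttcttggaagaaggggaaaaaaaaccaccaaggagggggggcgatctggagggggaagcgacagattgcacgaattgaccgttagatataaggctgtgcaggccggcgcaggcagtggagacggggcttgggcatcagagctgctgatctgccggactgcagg
A match is a string of letters only, and no match in these windows says nothing about binding elsewhere.

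Total counts per library lay between 29120000 and 49550000 (median 35670000). Levels are given in CPM, a gene's counts scaled to a common library size with edgeR's TMM factors. At 2 months 7 of the 56 libraries stood apart, with mitochondrial transcripts at 17.2% to 24.1% of counts against 11.4% to 14.9% in the other 49. Against the labelled tissue, 12 markers of striatal neurons summed to 4611 to 5462 CPM in Q140 at 10 months and to 7338 to 10050 CPM in Q20 of that age. The 8 choroid plexus genes passed the filter on low counts at all 3 ages.

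Ttr was detected in every library, with a median of 31.9 CPM, a lowest value of 3.77 CPM in a Q175 library of 10 months and a highest of 5383 CPM. On the length-corrected FPKM scale Ttr had a median of 26.03, Clic6 of 4.65, Kl of 0.901, Otx2 of 0.530, Folr1 of 0.490, Kcnj13 of 0.318, Aqp1 of 0.180 and Slc4a5 of 0.0976. Ttr was thus the most abundant of the 8 per length in the median library and Slc4a5 the least. The low genes rested on few reads: the median library held 15 counts of Slc4a5, 15.3 of Kcnj13, 17 of Aqp1 and 19 of Folr1, against 36 of Otx2, 167 of Kl, 627.5 of Clic6 and 1220 of Ttr. Kcnj13 was at 0 in 1 library of 2 months and Folr1 in another, where 0 counts allow up to 3.

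The genes differed in how far they ranged. The highest library stood 169-fold over the median of all libraries for Ttr, 137-fold for Slc4a5, 112-fold for Kcnj13, 88.0-fold for Aqp1 and 83.2-fold for Folr1. It stood 41.4-fold over the median for Kl, 25.9-fold for Otx2 and 6.32-fold for Clic6. Clic6 was the steadiest member, and without the highest pair of libraries its coefficient of variation was 0.130, against 1.48 for Ttr.

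Of all Ttr CPM in the series, 52.3% lay in 2 libraries of 6 months. The Q80 library F3 had 5301 CPM of Ttr, while the other 7 Q80 libraries of that age lay between 9.91 and 99.2 CPM. The wild-type library M2 from Q80 cages had 5383 CPM, while the other 7 of its group lay between 14.5 and 67.2 CPM. These libraries came from a female knock-in and a male wild type, and all 8 genes were highest of their group in both. A lesser height of 750.1 CPM was seen in Q175 F3 at 2 months and of over 500 CPM in Q140 M2 at 6 months, where the other 7 libraries reached at most 193.7 and 200.3 CPM. The fifth highest library, Q140 F1 at 10 months, had 258.0 CPM.

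**Figure D1:**
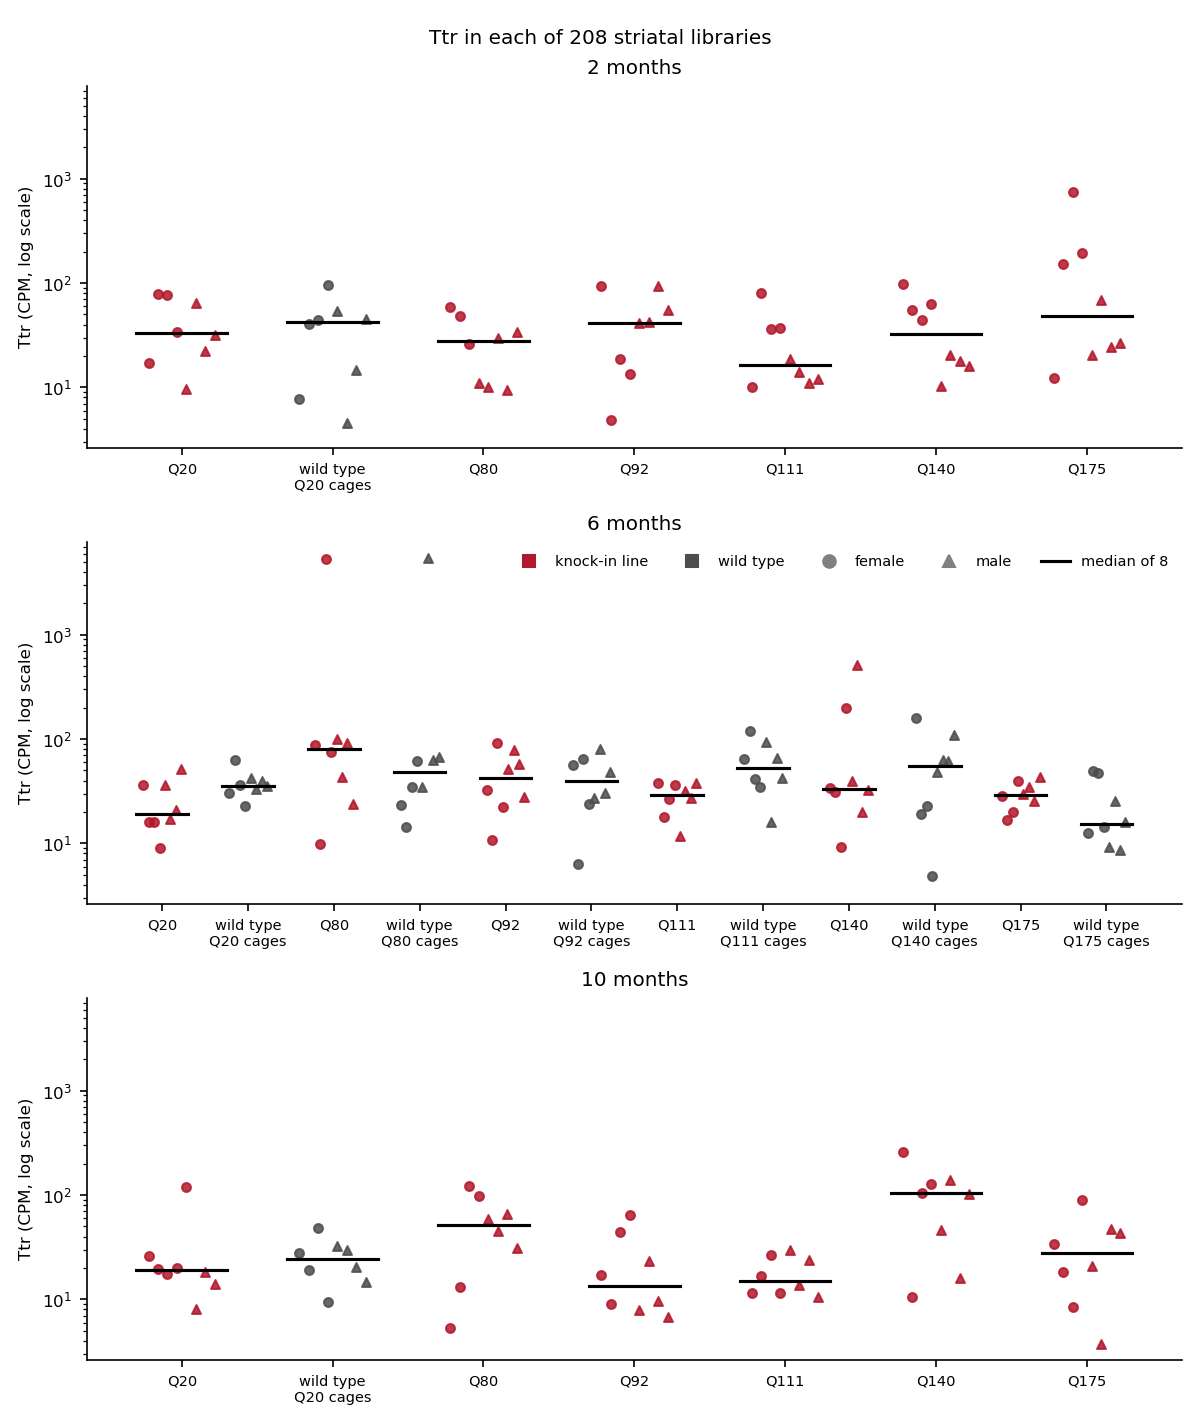
Ttr in CPM (log axis) in each library, by age and group, with circles for females, triangles for males and a line at the median of 8. The pair at 5301 and 5383 CPM at 6 months holds a Q80 knock-in and a wild type from Q80 cages, and every other library lies at or below 750.1 CPM.

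In Q80 F3 the transport genes were high along with Ttr. Slc4a5 stood at 53.6 CPM there (2169 counts), against a median of 1.005 CPM in the other 7 Q80 libraries, Kcnj13 at 45.6 against 0.754 CPM and Aqp1 at 41.2 against 0.623 CPM. Clic6 stood at 109.7 against 17.85 CPM, the smallest ratio of the 8 at 6.14. The receptor Folr1 stood at 43.6 against 0.773 CPM and klotho at 188.6 against 6.63 CPM. The transcription factor Otx2 stood at 24.8 against 0.932 CPM.

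The wild-type library M2 held nearly the same amounts. It had 48.5 CPM of Slc4a5, 35.4 of Kcnj13, 40.0 of Aqp1, 97.2 of Clic6, 38.7 of Folr1, 184.1 of Kl and 21.6 of Otx2. Its excess over the median of its group mates, divided by that of Q80 F3, lay between 0.780 for Kcnj13 and 1.02 for Ttr.

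Across the 4 libraries above 500 CPM of Ttr, the excess of each gene over its group mates was a like share of the Ttr excess. The excess of Kl was 2.64% to 3.48% of that of Ttr, of Slc4a5 0.761% to 1.19%, of Folr1 0.603% to 0.819%, of Aqp1 0.612% to 0.777% and of Kcnj13 0.559% to 0.858%. These shares spanned 1.27-fold (Aqp1) to 1.56-fold (Slc4a5), while the Ttr excess itself ranged between 483.9 and 5349 CPM. Clic6 (0.888% to 1.76%) and Otx2 (0.387% to 0.739%) varied more, by 1.98-fold and 1.91-fold.

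**Figure D2:**
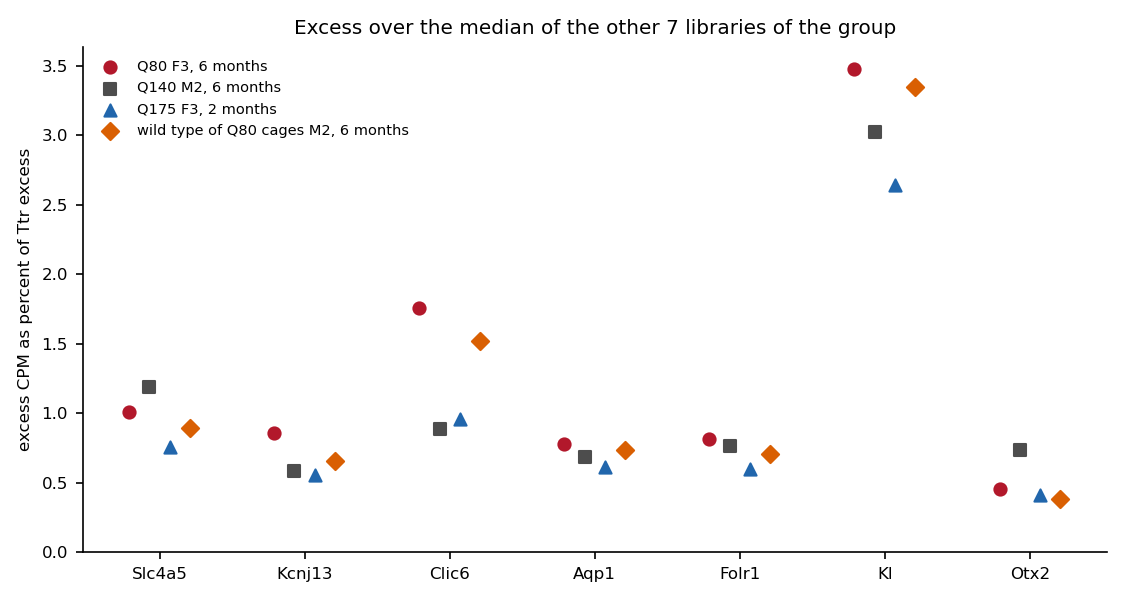
Excess of 7 genes over the median of the other 7 libraries of the group, as a percent of the Ttr excess of the same library, for the 4 libraries above 500 CPM of Ttr. Kl lies between 2.64% and 3.48% in all 4, and Slc4a5, Kcnj13, Aqp1, Folr1 and Otx2 lie below 1.20%.

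Other genes known from the choroid plexus were high in the same libraries. Of 45 further genes, 44 were above all group mates in Q80 F3 and 43 in the wild-type M2, with over 10-fold ratios in 18 and 17 of them. The share of all genes above their mates in such libraries is not given, so these counts are a description. In Q140 M2 38 of the 45 and in Q175 F3 32 of the 45 were above all mates, with median ratios of 1.61 and 1.81, against 7.23 in Q80 F3 and 6.71 in the wild-type M2. Sostdc1, a secreted antagonist of BMP and Wnt signals, stood at 35.4 CPM in the wild-type M2 against a median of 0.404 CPM in its mates. The tight junction gene Cldn2 stood there at 30.2 against 0.278 CPM, and Enpp2, the secreted lysophospholipase autotaxin, at 2684 against 299.0 CPM.

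Markers of other tissue moved in the same libraries, and their part in the levels was not tested. The 12 markers of meninges and fibroblasts summed to 932.1 CPM in Q80 F3 against 224.2 to 387.2 CPM in its mates, and to 746.4 CPM in the wild-type M2 against 244.8 to 449.2 CPM. The 12 ependymal markers summed to 195.2 CPM in Q80 F3 (mates 100.5 to 141.1 CPM) and to 188.1 CPM in the wild-type M2 (mates 109.5 to 134.7 CPM). The 12 thalamic markers were above all mates in Q80 F3 (894.2 against 137.3 to 193.9 CPM) and in Q140 M2 (695.6 against 121.4 to 219.4 CPM), while in the wild-type M2 (277.6 CPM) and Q175 F3 (307.4 CPM) another library of the group was higher. The 12 markers of hypothalamus and septum were above all mates in Q80 F3 (235.1 against 62.1 to 104.0 CPM), in the wild-type M2 (160.5 against 65.1 to 97.7 CPM) and in Q140 M2 (134.2 against 63.0 to 92.2 CPM), and second of the group in Q175 F3. That list shares Prlr with the 45 choroid plexus genes. Prlr alone held 78.9 CPM in Q80 F3, 66.3 in the wild-type M2 and 7.43 in Q140 M2, against at most 3.21, 2.30 and 3.48 CPM in their mates. The meningeal list likewise shares Igf2 (255.7 CPM in Q80 F3, 229.6 in the wild-type M2), and the ependymal list shares Foxj1 and Mia. Sums without the shared genes are not given. The 12 cortical neuron markers were highest of the group in Q80 F3 (287.3 against 153.9 to 257.4 CPM) and, by a narrow margin, in the wild-type M2 (271.2 against 146.1 to 271.0 CPM). The 10 hippocampal markers and the 10 markers of erythrocytes and endothelium were highest of the group in none of the 4. The 12 markers of striatal neurons were lowest of the group in Q80 F3 (7968 against 10890 to 12540 CPM), in the wild-type M2 (10580 against 10800 to 12770 CPM) and in Q140 M2 (6055 against 6762 to 9000 CPM).

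The groups overlapped, in ranges of all 8 libraries that include the single high ones. By median Ttr, Q140 at 10 months was highest with 103.6 CPM (range 10.6 to 258.0), followed by Q80 at 6 months with 81.1 CPM, and Q92 at 10 months was lowest with 13.4 CPM (range 6.73 to 64.8). In the order of the 26 groups all 25 neighbouring pairs overlapped, for each of the 8 genes. Groups next to each other by median are near in level by construction, so this says little about the genes. Of all 325 pairs of groups, none was without overlap for Ttr, Kcnj13, Folr1 and Kl, 1 for Slc4a5, Clic6 and Otx2 each, and 4 for Aqp1. The share of such pairs over all genes is not given, so the overlap is described for these genes only. Q140 at 10 months or Q80 at 6 months had the highest median for 7 of the 8 genes, all but Clic6, whose highest median was 19.4 CPM in wild types of Q140 cages and whose lowest was 16 CPM in Q111 at 2 months.

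Among wild types alone the median of Ttr ran from 15.2 CPM in Q175 cages to 55.3 CPM in Q140 cages at 6 months. Of the Q140-cage wild types F1 (157.6 CPM) and M4 (109.4 CPM) were high and F4 (4.83 CPM) low, without the knock-in allele. Wild types of Q20 cages had medians of 42.2 CPM at 2 months, 35.8 at 6 months and 24.3 at 10 months. By age, over all groups, the median of Ttr was 32.9 CPM in 56 libraries of 2 months, 34.7 CPM in 96 of 6 months and 22.1 CPM in 56 of 10 months, and ages, which were fitted apart, were not tested against each other.

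The genes moved together from library to library. Over the 28 pairs of genes and all libraries, Pearson's r of log2 CPM (prior count 1) had a median of 0.80, from 0.46 for Clic6 with Otx2 to 0.88 for Ttr with Kcnj13, and Spearman's rho a median of 0.66. Ttr was at 0.87 with Slc4a5, 0.86 with Kl, 0.85 with Folr1, 0.84 with Aqp1, 0.63 with Clic6 and 0.62 with Otx2. Without the pair of very high libraries of 6 months the median was 0.70, and Ttr kept 0.84 with Kcnj13 and Kl and 0.83 with Slc4a5, while Clic6 with Otx2 was at 0.01. Within an age the median was 0.63 at 2 months, 0.88 at 6 months and 0.63 at 10 months. Deviations from the group means gave 0.79, and 0.68 with the pair dropped after the means were taken. The means of their groups thus still held the pair, and 0.68 is not free of it. These values share library and depth, describe genes chosen for this pattern and carry no p.

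**Figure D3:**
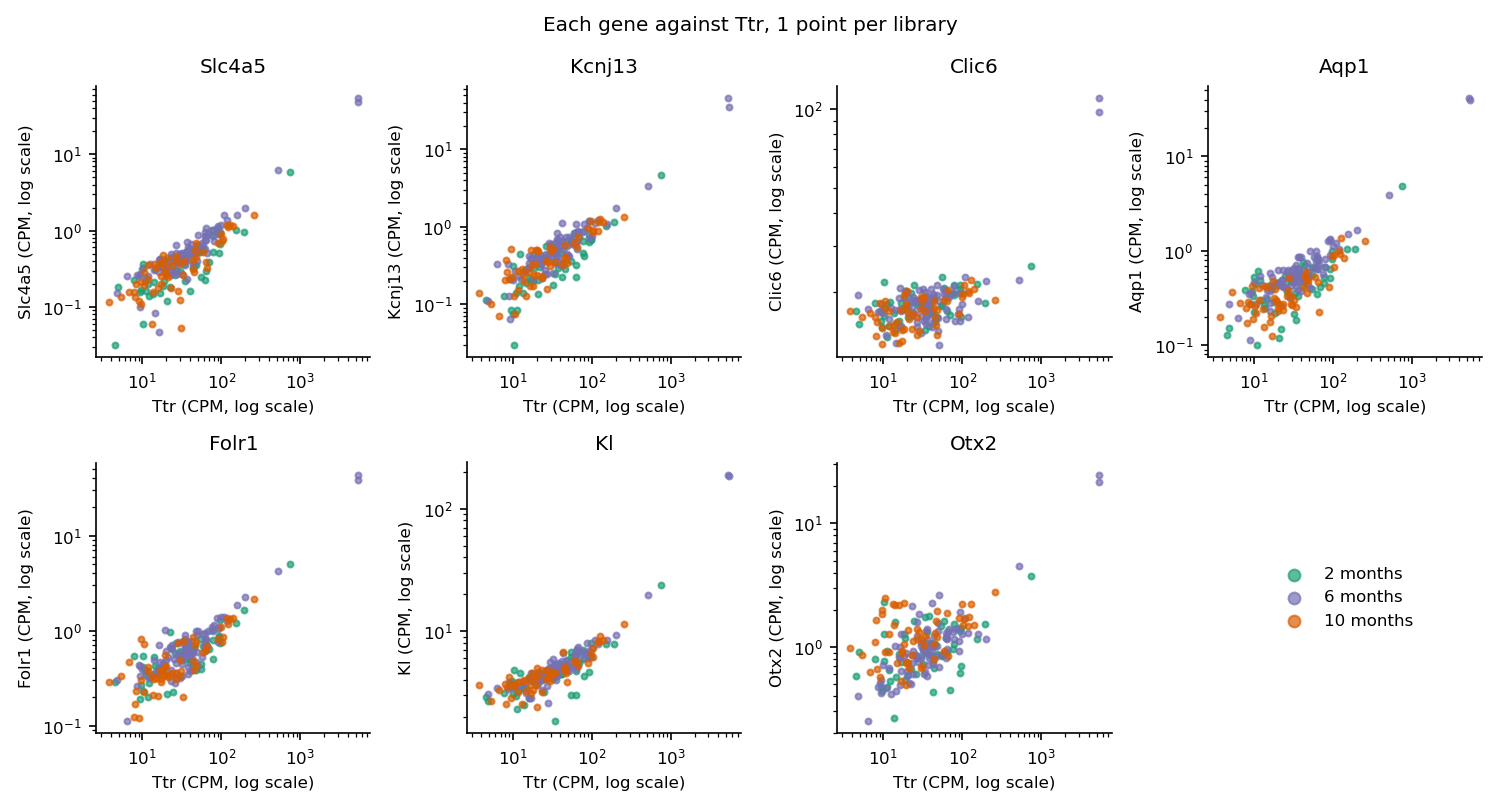
Each of 7 genes against Ttr, both in CPM on log axes, with 1 point per library coloured by age. Slc4a5, Kcnj13, Aqp1, Folr1 and Kl are higher where Ttr is higher over the whole range, while Clic6 and Otx2, with medians of 17.4 and 0.956 CPM, follow it less closely. Libraries at 0 (1 for Kcnj13, 1 for Folr1) are not drawn.

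A straight line of CPM on Ttr, over the 206 libraries outside that pair, gave the level each gene would have at no Ttr. It was 16.8 CPM for Clic6 (96.7% of its median), 0.873 CPM for Otx2 (91.4%) and 3.53 CPM for Kl (77.5%). For Folr1 it was 0.305 CPM (58.2%), for Aqp1 0.257 CPM (54.7%), for Kcnj13 0.217 CPM (53.2%) and for Slc4a5 0.118 CPM (30.0%). The level at no Ttr was thus the largest share of the median for Clic6 and the smallest for Slc4a5. In the same libraries r with Ttr was 0.45 for Clic6 and 0.47 for Otx2, and the coefficient of variation of Otx2 was 0.518, against 0.454 for Kl. Each further 100 CPM of Ttr went with 3.0 CPM of Kl, 1.43 of Clic6, 0.852 of Slc4a5, 0.700 of Folr1, 0.628 of Aqp1, 0.613 of Kcnj13 and 0.488 of Otx2. Without the 4 libraries above 500 CPM of Ttr the value for Clic6 was 2.36 CPM, and those of the other 6 genes moved by less than 1.5 times.

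Outside the 8, the genes most like them by Pearson's r with their mean standardised log2 CPM, over all libraries and among the 15633 that averaged 0.5 CPM or more, were Mfrp, Cldn2 and F5 (0.89 each), 1500015O10Rik (0.88), Kcne2 (0.87), Tmem72 and Col8a1 (0.81), Sostdc1 (0.80), Enpp2 and Slc13a4 (0.79), Slc2a12, Igf2 and Sema3b (0.78), and Calml4 and Abca4 (0.76). F5 encodes coagulation factor V, Kcne2 a potassium channel subunit, Slc13a4 a sulfate transporter and Igf2 a growth factor. Of these 15 genes 11 were among the 45 listed choroid plexus genes, and 13 of the 15 were again among the first 15 without the very high pair. Of the 45, 39 reached the level needed and 23 of those had r over 0.5, against 65 genes (0.416%) of all compared. Without the very high pair 10 of the 39 had r over 0.5, against 16 genes (0.102%) of all compared, and the median r of the 39 was 0.33 in place of 0.61. The summed CPM of the 45, which includes genes widely expressed in brain such as Atp1b1, followed the 8 genes less (r 0.55, and 0.15 without the pair). The sums of other lists gave r of 0.53 for meninges and fibroblasts, 0.39 for ependyma, 0.04 for thalamus and 0.03 for cortical neurons, and without the pair 0.32, 0.19, -0.05 and -0.06. The meningeal list here includes Igf2, and the ependymal list Foxj1 and Mia, which are also among the 45.

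At 6 months Q80 set against Q20 carried the values for which the genes were noticed, and they are described only. The log2 fold change by edgeR was 4.94 for Ttr, 4.22 for Slc4a5, 4.08 for Kcnj13, 3.88 for Aqp1, 3.55 for Folr1, 2.79 for Kl, 2.67 for Otx2 and 0.75 for Clic6. In this contrast 0.289% of all genes were called at an adjusted p under 0.05. Without Q80 F3 the values were 1.27 for Ttr, 0.97 for Aqp1, 0.89 for Slc4a5, 0.79 for Kcnj13, 0.74 for Folr1, 0.64 for Otx2, 0.45 for Kl and 0.04 for Clic6. Set against wild types of their own cages, Q80 mice stood at 0.22 for Ttr and at 0.14 to 0.40 for the other 7, where 0.0510% of all genes were called. Each side of that contrast held 1 of the very high libraries. Without Q80 F3 the log2 fold change of Ttr was -3.34, without the wild-type M2 it was 4.05, and without both it was 0.51.

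At 10 months Ttr, Slc4a5, Aqp1, Folr1 and Kl were higher in Q140 than in Q20 mice. Ttr had 258.0, 10.6, 104.3 and 127.6 CPM in Q140 females and 46.4, 138.9, 16.01 and 102.9 CPM in Q140 males, against 26.3, 19.6, 17.4, 20.1 and 119.0 CPM in Q20 females and 8.08, 18.4 and 13.97 CPM in Q20 males. In Q140 6 of 8 libraries were above the Q20 mean, with F2 and M3 low, and in Q20 F5 stood alone above 100 CPM, so the groups overlapped. The means were 100.6 ± 80.4 CPM in Q140 and 30.4 ± 36.2 CPM in Q20 (SD, n = 8 each), and edgeR's quasi-likelihood test over all 17170 genes gave a log2 fold change of 1.85 (SE 0.569, adjusted p = 0.0139). Of the 8 genes 5 were called, all higher, in a contrast in which 22.5% of all genes were called and 10.9% were called higher. All 8 had a positive value, with a median of 0.92 against 0.004 over all genes. The 8 were chosen for moving together over the same libraries, so their shared sign and their calls are not separate observations.

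Among the transport genes Slc4a5 and Aqp1 rose and Kcnj13 and Clic6 did not pass. Slc4a5 had 0.176, 0.745 and 1.58 CPM as lowest, median and highest in Q140 against 0.136, 0.327 and 1.17 CPM in Q20 (log2 fold change 1.05, SE 0.384, edgeR adjusted p = 0.0410). Aqp1 had 0.176, 0.758 and 1.38 CPM in Q140 against 0.171, 0.363 and 1.01 CPM in Q20 (0.89, SE 0.293, edgeR adjusted p = 0.0223). Both had Q140 libraries, F2 and M3, within the lower range of Q20. Kcnj13 had medians of 0.886 CPM in Q140 and 0.368 CPM in Q20 (0.95, SE 0.378, edgeR adjusted p = 0.0609), and Clic6 of 19.1 and 16.1 CPM (0.15, 95% interval -0.04 to 0.34).

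Of the other members Folr1 and Kl rose. The folate receptor had 0.205, 0.805 and 2.12 CPM as lowest, median and highest in Q140 against 0.171, 0.321 and 1.37 CPM in Q20 (1.23, SE 0.324, edgeR adjusted p = 0.00371), with 7 of 8 Q140 libraries above the Q20 mean. Klotho had 3.72, 6.77 and 11.4 CPM in Q140 against 2.56, 4.04 and 8.29 CPM in Q20 (0.63, SE 0.204, edgeR adjusted p = 0.0205). The groups overlapped for both genes, and F1 was highest in Q140 and F5 in Q20. Otx2 had medians of 1.66 CPM in Q140 and 1.11 CPM in Q20 (0.54, 95% interval -0.04 to 1.11) and did not pass.

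**Figure D4:**
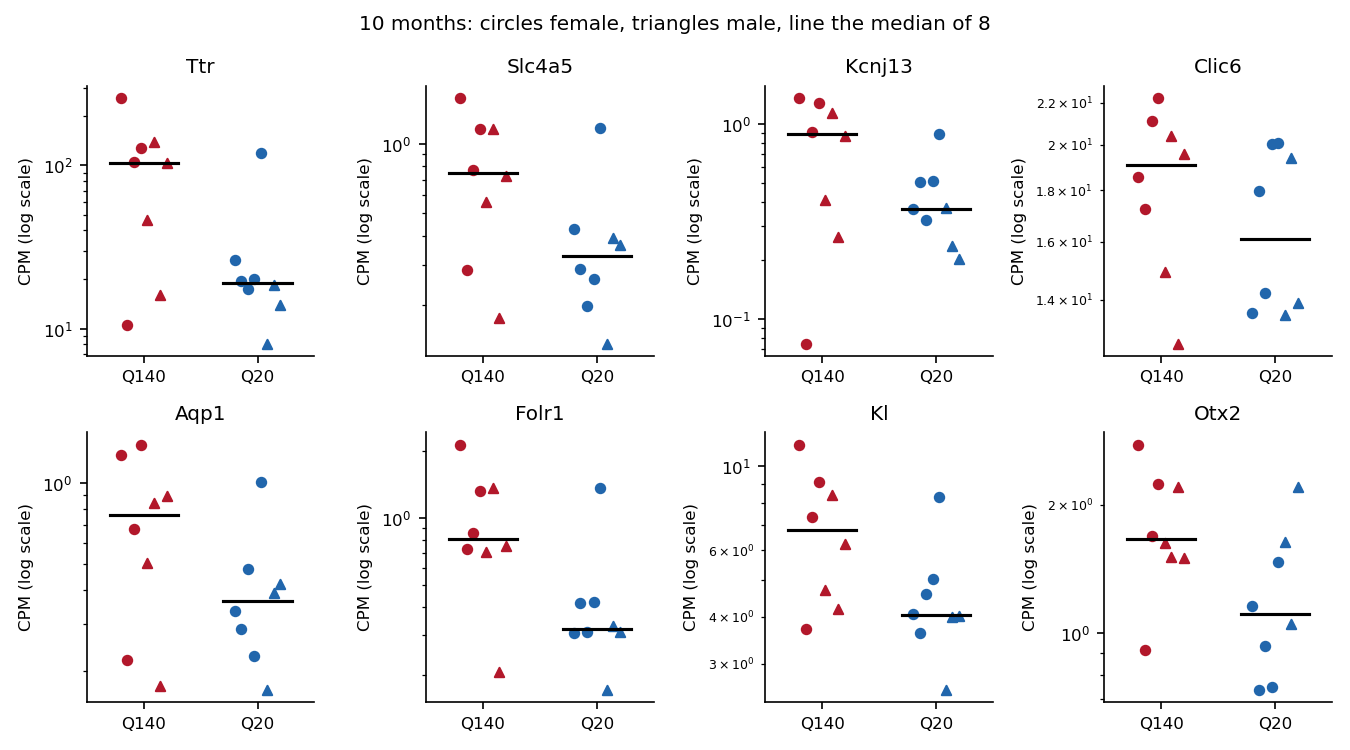
The 8 genes in CPM (log axes) in the 8 Q140 and 8 Q20 libraries of 10 months, with circles for females, triangles for males and a line at each median. The medians are higher in Q140 for all 8 genes, the groups overlap for each, and for Ttr 2 Q140 libraries lie within the range of the lower 7 Q20 libraries.

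These calls depended on single libraries and on the fit. Without Q140 F1 only Folr1 was called and Ttr stood at 1.56, and without Q20 F5 6 genes were called, Kcnj13 among them, with Ttr at 2.53. In a fit limited to the groups compared Ttr and Folr1 were called, and with wild types of 10 months in place of Q20 6 were, Kcnj13 among them. Of all genes 21.5% were called in the fit limited to the groups compared and 20.9% in the fit with wild types. For the fits without Q140 F1 or Q20 F5 this share is not given, so their counts are a description.

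Of the 45 further choroid plexus genes 42 were tested in Q140 against Q20 at 10 months, 10 were called higher and 3 lower, with a median of 0.11. Cldn2 averaged 0.457 CPM in Q140 and 0.144 CPM in Q20 (log2 fold change 1.72), and the keratin Krt18 0.423 and 0.182 CPM (1.32). The other genes called higher were Slc5a5 at 0.55, Htr2c at 0.47, Col9a3 at 0.30, Spint2 at 0.27, Slc4a2 at 0.26, Atp1b1 at 0.21, Cab39l at 0.16 and Slc4a10 at 0.13. Atp1b1, a sodium pump subunit, the serotonin receptor Htr2c and the bicarbonate transporter Slc4a10 are also expressed in neurons. Those called lower were Car12, a carbonic anhydrase, at -0.83, Ace, the angiotensin converting enzyme, at -0.73 and Rfx2 at -0.56. Beside these values 0 of 12 ependymal markers were called (median -0.04), 3 of 12 meningeal markers were lower (median -0.20), 0 of 12 thalamic markers were called (median 0.39) and 11 of 12 striatal neuron markers were lower (median -0.71). The summed thalamic markers lay between 240.2 and 803.5 CPM in Q140 and between 169.0 and 707.6 CPM in Q20, and their part in the result was not tested.

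In the other 4 lines of 10 months none of the 32 tests of members was called. Over all 5 lines the 5 calls were 12.5% of 40 tests, against 12.2% of the tests of all genes (0.122% in Q80, 1.12% in Q92, 12.5% in Q111, 22.5% in Q140 and 24.5% in Q175). Ttr stood at 1.03 in Q80 and 0.29 in Q175, and at -0.34 in Q92 and -0.54 in Q111. A trend with repeat length was not called: it was, over the 6 lines, 0.05 log2 units of Ttr per 10 repeats (SE 0.0339), and 0 of 24 trend tests were called at the 3 ages, against 0.594%, 42.2% and 34.3% of those of all genes at 2, 6 and 10 months, with 3 at an unadjusted p under 0.05. Without Q20 F5 of 10 months 2 trend tests were called, in a fit for which the share of all genes called is not given. The 6-month trend includes the Q80 libraries on which the genes were chosen. Its share of the 24 tests is a description only.

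At 6 months 0 of 32 tests of the other 4 lines against Q20 were called, against 5.99% of all genes for Q92, 12.8% for Q111, 27.9% for Q140 and 36.2% for Q175, with 1 at an unadjusted p under 0.05. In Q140 Ttr had 9.29 CPM as lowest value, a median of 32.9 CPM and over 500 CPM in M2, against 9.04, 19.0 and 51.2 CPM as lowest, median and highest in Q20. The log2 fold change was 2.10 (SE 0.869, edgeR adjusted p = 0.0606), and in Q140 M2 and F4 (200.3 CPM) lay above all Q20 libraries. The other transport genes stood at 1.58 (Slc4a5), 1.42 (Aqp1), 1.23 (Kcnj13) and 0.15 (Clic6), Folr1 at 1.18, Otx2 at 0.98 and Kl at 0.73.

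All 12 groups of 6 months shared 1 estimate of the spread. Without Q80 F3 and the wild-type M2 of Q80 cages the log2 fold change of Ttr in Q140 remained 2.10 but its SE was 0.527, and all members but Clic6 were called in Q140 against Q20, where 29.1% of all genes were. With Q140 M2 also left out Ttr stood at 1.07 (SE 0.493), and Aqp1 (0.81) was the only member called in Q140, while Otx2 (0.73) was called in Q175. In that fit 26.8% of all genes were called in Q140 and 37.7% in Q175. DESeq2 gave no adjusted p for 24 of the 32 tests and called none of the rest.

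Set against wild types of their own cages at 6 months, 0 of 40 tests in 5 lines were called, none of them at an unadjusted p under 0.05 by edgeR, and DESeq2, which gave no adjusted p for 30 of them, called none, while 11465 of the 88210 tests of all genes were (0.0227% in Q20, 0.0510% in Q92, 8.94% in Q111, 24.2% in Q140 and 31.8% in Q175). Ttr stood at 0.83 in Q140 (95% interval -0.79 to 2.45), 0.33 in Q175 and 0.14 in Q92, and at -0.60 in Q20 and -1.08 in Q111 (95% interval -2.75 to 0.59). In Q140 the median of Ttr was 32.9 CPM against 55.3 CPM in wild types of Q140 cages, so the sign of the fitted value, which rests on means, differed from that of the medians. Differences within these wide intervals could not be resolved in this fit. Without Q80 F3, the Q80-cage wild type M2 and Q140 M2, Folr1 was called lower in Q111 (-0.89), where 10.3% of all genes were called.

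**Figure D5:**
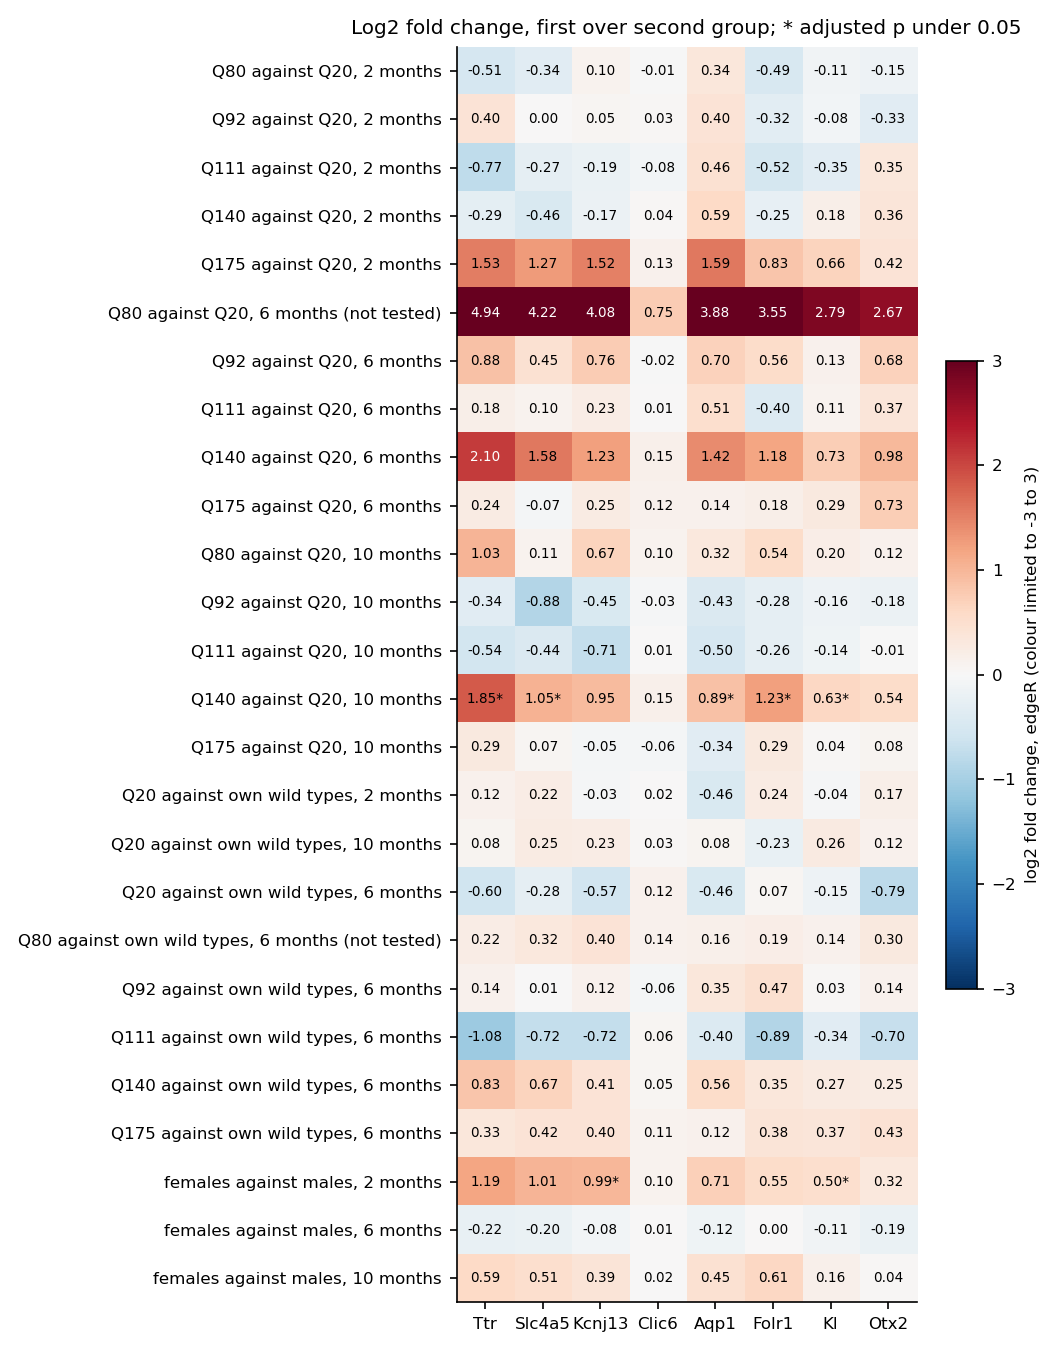
Log2 fold change by edgeR of the 8 genes in 26 comparisons, the first-named group over the second, with an asterisk where the adjusted p was under 0.05. The 7 asterisks lie in Q140 against Q20 at 10 months (5) and in females against males at 2 months (2), and both Q80 contrasts of 6 months are shown without a test.

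At 2 months 0 of 40 tests of the lines against Q20 were called, as were 0.0118% of all genes in Q80, 0.0176% in Q111, 0.218% in Q175 and none in Q92 and Q140, with 6 members' tests at an unadjusted p under 0.05 and 1 called by DESeq2. All 6 belonged to Q175, where Ttr had 12.3, 47.9 and 750.1 CPM as lowest, median and highest, against 9.72, 32.9 and 78.2 CPM in Q20. Q175 F2, F3 and F4 were above all Q20 libraries and the rest within their range. The log2 fold changes were 1.59 for Aqp1, 1.53 for Ttr, 1.52 for Kcnj13, 1.27 for Slc4a5, 0.83 for Folr1 and 0.66 for Kl, and without Q175 F3 they were 0.81 for Aqp1 and 0.67 for Ttr. Q20 set against wild types at 2 and 10 months gave 0 of 16 calls, where none of all genes at 2 months and 0.0116% at 10 months were called, with none of the 16 at an unadjusted p under 0.05 and 0 called by DESeq2, and Ttr at 0.12 and 0.08.

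Kcnj13 and Kl were higher in females than in males at 2 months. Kcnj13 had a median of 0.464 CPM (range 0 to 4.60) in 27 females and of 0.223 CPM (0.0301 to 0.730) in 29 males, and the log2 fold change within groups was 0.99 (SE 0.261, edgeR adjusted p = 0.0441). Kl had a median of 4.88 CPM (2.71 to 23.6) in females and of 3.99 CPM (1.85 to 6.79) in males (0.50, SE 0.129, edgeR adjusted p = 0.0429). Both sexes overlapped, and 22 and 23 of the 27 females were above the mean of males. These 2 of 8 genes were called, against 0.923% of all genes (0.629% higher in females). Ttr had medians of 44.6 CPM in females and 20.5 CPM in males (1.19, adjusted p = 0.0720 by edgeR) and did not pass, nor did Slc4a5 (1.01), Aqp1 (0.71), Folr1 (0.55), Otx2 (0.32) and Clic6 (0.10).

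Among the 42 further choroid plexus genes tested, Cldn2 (1.15) and Ace (0.26) were called higher in females at 2 months, and 0 of 12 cortical neuron markers were called (10 above 0, list median 0.54). The calls of Kcnj13 and Kl were close to the threshold: neither was called without any single one of the females Q20 F2, Q80 F1, Q92 F1, Q140 F1 and the wild type F4, nor without the filter on low counts, while DESeq2 called 4 genes. Of all genes DESeq2 called 1.35% and the fit without the filter 0.442%. With limma on FPKM, where 3 of the 8 genes were tested and Kcnj13 was not, Kl was not called. Without Q175 F3 Kcnj13 stood at 0.80 and only Kl was called. Without Q80 M3 both were called, with an edgeR adjusted p of 0.0275 for Kcnj13 and 0.0349 for Kl. Without the 7 libraries of high mitochondrial share 3 genes were called. For the fits that left out libraries the share of all genes called is not given, so these counts are a description. At 6 and 10 months none of the 8 was called between the sexes, with Ttr at -0.22 and 0.59, where 18.5% and 1.28% of all genes were called. The sex test of 6 months also holds the Q80 libraries on which the genes were chosen, and it is a description. The difference of the sex effect between ages was not tested.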

How the data were processed

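The authors deposited 2 tables, 1 of expected counts per gene and 1 of FPKM (a length-corrected level), with 39179 Ensembl genes in 26 groups of 8 libraries, per the file headers. Of the counts above 0, 32.7% were not whole, as estimated counts are. CASAVA 1.8.2 is named in the submitters' processing notes. Aligner, counter, use of strand and build were not given in the sources used here. Deposited FPKM was used for levels between genes and as an alternative.

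Counts were rounded, filtered by edgeR's filterByExpr (minimum count 10, minimum total 15) and fitted per age with edgeR 4.0.16 (R 4.3.3): TMM, group and sex as terms, robust quasi-likelihood test, Benjamini-Hochberg adjustment over all genes tested (17006, 17642 and 17170 at 2, 6 and 10 months), called at an adjusted p under 0.05. Standard errors were taken as the log2 fold change over the root of F. Each fitting function was tested on simulated data with 1 spread for all genes, no outlying libraries and changes set only in genes of higher counts. That setting differs from the low genes and the very high libraries here, so it does not bear on them. DESeq2 gave no adjusted p for most tests of the lines at 6 months, since its replacement of outlying counts did not act with so few libraries per group and sex. It also gave none for 17 of 128 tests in other comparisons, which include the trend and sex tests. Alternatives were DESeq2 1.42.0, limma 3.58.1 on log2(FPKM + 1) and log2(FPKM + 0.1), size factors, no filter, a replicate block, only the groups compared, wild types as reference, and the library highest in the summed CPM of the 8 genes left out, 1 group at a time (26 fits). Genes singled out were the 8, those of 45 further choroid plexus genes that passed where a member passed, and the 15 most alike. The 8 genes, the lists and the tests were chosen with earlier results of these data known, and 5 alternatives that leave out libraries were added after the levels were seen. Of 29 comparisons 2, those of Q80 at 6 months, are described without a test. The trend and sex tests of 6 months hold the same Q80 libraries, and their results for the 8 genes are a description. Figures were drawn with matplotlib 3.10.9. Depth limits the low genes.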

Additional observations from a re-analysis of the deposited data

Results flagged for a closer look

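With 8 genes checked in 26 groups on log2 CPM, 24 values stood farther from the rest of their group of 8 than Dixon's 95% limit, 21 high and 3 low. Chance flags about 1 in 20 groups, but the genes were selected on their levels in Q80 mice at 6 months and on moving together, so the values of Q80 F3 are given as a description and the count is not read against that rate. Of the 24 values, 16 were the 8 genes in the same pair of libraries of 6 months. The Q80 library F3 stood apart with 5300 CPM of Ttr, 53.6 of Slc4a5, 45.6 of Kcnj13, 110.0 of Clic6, 41.2 of Aqp1, 43.6 of Folr1, 189 of Kl and 24.8 of Otx2. The wild-type library M2 of Q80 cages stood apart with 5380 CPM of Ttr, 48.5 of Slc4a5, 35.4 of Kcnj13, 97.2 of Clic6, 40.0 of Aqp1, 38.7 of Folr1, 184 of Kl and 21.6 of Otx2. Markers of meninges, ependyma and striatal neurons differed from the group mates in both libraries, and their part in these values was not tested.

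Q175 F3 at 2 months stood apart with 23.6 CPM of Kl and 4.89 CPM of Aqp1. Q140 M2 at 6 months stood apart with 4.52 CPM of Otx2, and Q20 F5 at 10 months with 119 CPM of Ttr and 1.37 CPM of Folr1. The 3 low values were 14.7 CPM of Clic6 in Q20 M2 at 6 months, 0.0 CPM of Folr1 in Q92 F2 at 2 months, where 0 counts allow up to 3, and 0.195 CPM of Aqp1 in the wild-type F2 of Q92 cages at 6 months.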

How the results depend on the processing

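Of the alternatives to the 8 summary results 148 values were within 1.5 times the main one or within its spread, and 31 were not. Members called in lines against Q20 at 2 months were 0 and with DESeq2 1, and at 6 months 0 of 32, but 2 with only the groups compared, 0 to 2 with the highest library of 1 group left out, 7 without Q80 F3 and the Q80-cage wild type M2, and 2 with Q140 M2 left out as well. Against wild types of their own cages at 6 months the same 3 omissions gave 1 in place of 0. At 10 months 5 calls became 2 with limma on either FPKM scale (4 members tested in Q140), 2 with only the groups compared, and 1 to 6 with 1 library left out. In Q140 limma called 33.0% of all genes tested on log2(FPKM + 1) and 32.9% on log2(FPKM + 0.1). Trend calls, 0, were 1 with the replicate block, 1 with DESeq2, 1 without Q80 F3 and the Q80-cage wild type M2, and 0 to 2 with 1 library left out. Sex calls, 2, were 0 without the filter, 0 with the replicate block, 0 with limma on either FPKM scale (3 members tested at 2 months, Kcnj13 not among them), 0 without the Q80 libraries, 4 with DESeq2 and 0 to 2 with 1 library left out. The cause of these changes was not tested. For fits with 1 library left out or without the Q80 libraries the share of all genes called is not given. Those counts are a description. Libraries were not paired by replicate number in the main fit. Deviations of same-numbered libraries of an age had a median correlation of -0.02, 0.13 and 0.029 at 2, 6 and 10 months. For libraries of other numbers it was -0.006, -0.035 and -0.01, so same-numbered libraries were slightly more alike at 6 months. What the numbers stand for is not given in the labels. In Q140 against Q20 at 10 months the replicate block gave 6 calls in place of 5, where 21.1% of all genes were called in place of 22.5%. The median r between members, 0.80, was 0.65 without the 4 libraries above 500 CPM of Ttr, 0.63 within 2 months and 0.63 within 10 months. For deviations from group means it was 0.68 without the very high pair, which was still included when those means were taken. Depth limits Slc4a5, Kcnj13, Aqp1 and Folr1, with 15 to 19 counts in the median library.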
